A study of Mus musculus with 3 samples.

Results

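The 7 genes Nos3, Prkg1, Pde5a, Pde3a, Pde2a, Npr1 and Npr3, which make, pass on or end nitric oxide (NO) and cGMP signals, were followed across the cell types of the postnatal mouse lung. They were listed by gene symbol, with earlier results of these data known, and all 7 were found among the 28692 genes of the count tables. The counts came from scRNA-Seq of whole lung from 3 WT C57BL/6 mice (mice 2, 3 and 4, 1 library each) that had breathed room air from day 1 to P14. All mice shared this genotype, age and exposure, so each comparison set cell types of the same mice against each other, and 16000 dissociated cells were loaded per library. The study used these libraries to place a Notch ligand in the 4 major cell groups of the lung, and NO and cGMP genes were not its question.

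NO made in EC diffuses into neighboring mural cells, the smooth muscle cells and pericytes that wrap vessels, where it activates soluble guanylate cyclase to make cGMP. Natriuretic peptides make cGMP by another route, through membrane receptors that are themselves guanylyl cyclases. cGMP activates cGMP-dependent protein kinase, which relaxes smooth muscle, and phosphodiesterases end the signal. In the lung this pathway keeps vascular resistance low after birth, and inhibitors of Pde5a are used to treat pulmonary hypertension.

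The 3 libraries held 9644 droplets and 71413428 UMIs, between 22476491 and 25192427 UMIs per mouse. Of these droplets 7642 passed the filters (at least 200 genes, at most 20% mitochondrial UMIs), with a median of 4853 to 7119 UMIs per cell in the 3 mice. The study's design text states 5677 cells, with no filter given. The kept cells fell into 906 endothelial, 422 mural, 1023 other stromal, 1305 epithelial and 3018 immune cells, and 968 were in none of these classes. No deposited annotation was used here, so clusters were named from markers and are called by those names with "-like" or "-type", and 21 types, 1 of them immune cells of no single type, had at least 10 cells in each mouse. The mural class holds smooth-muscle-like cells, pericyte-like cells and 125 cells led by Notch3, called Notch3 mural cells here. In these 125 cells all 12 smooth muscle and pericyte markers were detected and neither list prevailed. Smooth muscle of vessels and of airways was not separated. Levels and folds of mural or smooth-muscle-like cells thus cannot be read as vessel wall alone. The libraries shared 2 to 5 cell barcodes per pair. Marked doublets numbered 56, 66 and 78 among the kept cells of mice 2, 3 and 4.

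Levels are given as CPM, UMIs of the gene per 1000000 UMIs of the cell type in a mouse, as mean ± SD over 3 mice. A level of 1 gene is compared between cell types and never with the level of another gene. The kept cells held 1290 UMIs of Nos3, 1230 of Prkg1, 18003 of Pde5a, 8787 of Pde3a, 1338 of Pde2a, 4433 of Npr1 and 1693 of Npr3. With 3 mice the exact permutation test of a single level cannot go below p = 0.1, so adjusted p values come from edgeR's quasi-likelihood test fitted across all genes. Cell types of 1 mouse share a library, and comparisons that use the same cell group share those cells.

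**Figure D1:**
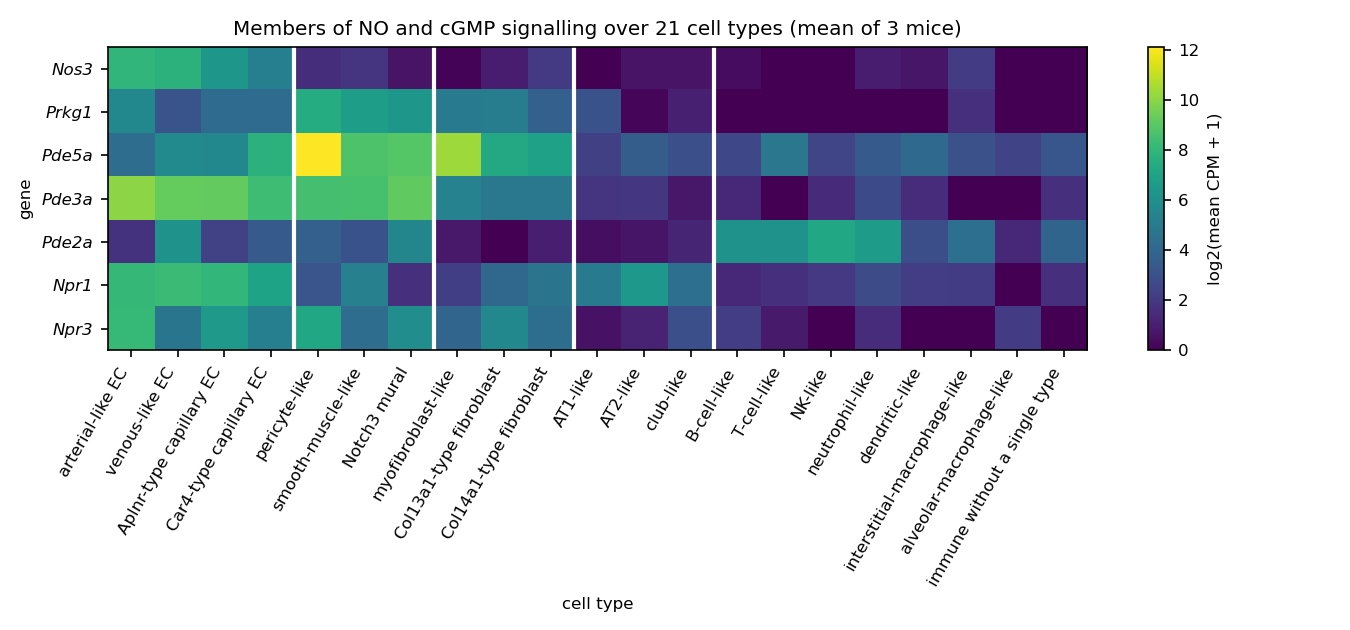
Heat map of the mean level of each of the 7 genes (vertical axis) in 21 cell types (horizontal axis), on a log2 scale of CPM, over 3 mice. Nos3 is high in the 4 EC types, Pde5a in pericyte-like and myofibroblast-like cells, and Pde2a in NK-like cells, while Npr1 has a further band in AT2-like cells.

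Nos3, the endothelial NO synthase (5:24364810-24384474, plus strand, GRCm38), was counted almost wholly in EC. EC held 91.0% ± 1.14 of its UMIs in each mouse on average (SD, n = 3). Its level was 252 ± 50.2 CPM in arterial-like EC, with 198, 262 and 297 CPM in mice 2, 3 and 4. Venous-like EC had 222 ± 42.1 CPM (182, 218 and 266 CPM), so arterial-like and venous-like EC overlapped. Aplnr-type capillary EC had 85.1 ± 5.34 CPM (86.8, 89.4 and 79.1 CPM) and Car4-type capillary EC 36.9 ± 1.82 CPM (36.3, 38.9 and 35.4 CPM). Each of these capillary groups lay below its neighbor in the order in every mouse. None of the other 17 types exceeded 3.29 CPM. At least 1 Nos3 UMI was found in 78.8% ± 6.64 of arterial-like EC (124 of 157 cells, median 7409 UMIs per cell). In B-cell-like cells, which served as a check for free RNA, 2 of 1782 cells had a Nos3 UMI at a median of 3959.5 UMIs per cell. Among AT2-like cells 9 of the 11 Nos3 UMIs lay in droplets marked as doublets.

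Npr1 and Npr3 both bind natriuretic peptides and do different things with them. Npr1 (3:90450591-90465866, minus strand) is the receptor for atrial and brain natriuretic peptide and makes cGMP. Npr3 (15:11839896-11907287, minus strand) is the clearance receptor, which takes up natriuretic peptides and has no cyclase domain. The 2 genes shared high levels in arterial-like EC and parted in venous-like EC, pericyte-like cells and AT2-like cells.

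Npr1 was high in all 4 main EC types and had a further site of expression in epithelium. Venous-like EC had 309 ± 53.6 CPM (345, 335 and 247 CPM), arterial-like EC 270.2 ± 15.2 CPM and Aplnr-type capillary EC 259 ± 4.68 CPM, and neighbors among these 3 overlapped. Car4-type capillary EC had 131 ± 9.44 CPM (141, 125 and 125 CPM), below all 3 in every mouse. AT2-like cells, the surfactant-making epithelial cells, had 87.4 ± 2.56 CPM of Npr1 (86.3, 85.6 and 90.4 CPM). This was 1502 UMIs of Npr1, more than in any EC type, because AT2-like cells were many and deep. An Npr1 UMI was found in 72.2% ± 0.52 of AT2-like cells (753 of 1043, median 16194 UMIs) against 0.67% ± 0.54 of B-cell-like cells. With every cell thinned to 1000 UMIs the shares were 8.53% in AT2-like cells and 0.15% in B-cell-like cells. AT1-like cells, which form the gas exchange surface, had 31.4 ± 2.36 CPM of Npr1. The 6 AT2 markers, none at 0, summed to 50233 to 73053 CPM in AT1-like and 197356 to 220757 CPM in AT2-like cells, and their part in the AT1-like level was not tested. EC held 52.6% ± 0.49 of the Npr1 UMIs and epithelial cells 36.7% ± 3.19.

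Npr3 was highest in arterial-like EC among the 21 types, at 277 ± 12.6 CPM (262, 286 and 282 CPM). Pericyte-like cells followed with 149 ± 11.6 CPM (159, 150.0 and 136 CPM), and the groups did not overlap. Aplnr-type capillary EC had 89.4 ± 13.4 CPM, Notch3 mural cells 60.2 ± 23.1 CPM and Col13a1-type fibroblasts 48.9 ± 14.6 CPM, each overlapping its neighbor in the order. Venous-like EC had 24.7 ± 5.04 CPM of Npr3 (28.9, 19.1 and 26.1 CPM), the lowest mean of the 4 EC types with at least 10 cells a mouse. Among the 21 types the mean of Npr1 was highest in these venous-like cells, where it overlapped arterial-like EC. Within arterial-like EC the 98 cells of the sub-cluster led by Cxcl12, Gja5 and Sema3g had 405 ± 70.4 CPM of Npr3 and the 59 cells led by Cytl1, Vwf and Lyve1 had 134 ± 22.6 CPM. This difference within a type is a description, since clusters were drawn from the same cells.

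Prkg1 encodes the cGMP-dependent protein kinase of smooth muscle (19:30564489-31765033, minus strand). It was highest in mural cells. Pericyte-like cells had 179 ± 37.2 CPM (144, 218 and 174 CPM) and smooth-muscle-like cells 107 ± 16.9 CPM (126, 96.6 and 97.3 CPM), with no overlap. Notch3 mural cells had 82.9 ± 15.9 CPM and overlapped smooth-muscle-like cells. Arterial-like EC came next with 49.6 ± 8.63 CPM of Prkg1 (41.0, 49.6 and 58.3 CPM), above the other EC types with at least 10 cells a mouse. A Prkg1 UMI was found in 74.4% ± 7.77 of pericyte-like cells and in 0 of 1782 B-cell-like cells, which allows a share of up to 0.21% (exact binomial, 95%) of cells with a UMI at this depth, not of cells expressing the gene. Mural cells held 48.2% ± 5.92 of the Prkg1 UMIs, other stromal cells 28.8% ± 4.39 and EC 17.1% ± 4.19.

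Prkg1 and Npr1 moved in opposite directions between EC and mural cells, and the 250 bases before a start site of each are printed for that reason. The sequences are from the RefSeq table of GRCm38.p6 and are read 5′ to 3′ along the gene. Capitals mark AGGAAG, a core bound by ETS factors, and TGGGAA, the core bound by RBPJ, the factor of Notch signalling. Prkg1 lies at chr19:31765034-31765283 (minus strand) and Npr1 at chr3:90465867-90466116 (minus strand).
Prkg1: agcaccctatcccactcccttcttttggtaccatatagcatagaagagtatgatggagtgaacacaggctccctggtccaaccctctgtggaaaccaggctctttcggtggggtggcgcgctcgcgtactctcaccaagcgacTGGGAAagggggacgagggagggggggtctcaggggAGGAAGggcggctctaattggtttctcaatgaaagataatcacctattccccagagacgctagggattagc
Npr1: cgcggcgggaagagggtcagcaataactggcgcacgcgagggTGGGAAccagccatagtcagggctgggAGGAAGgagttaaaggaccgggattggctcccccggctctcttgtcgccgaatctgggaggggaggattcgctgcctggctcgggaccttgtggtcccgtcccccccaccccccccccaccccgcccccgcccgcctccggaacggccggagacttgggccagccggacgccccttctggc
Both windows held both motifs, and neither held GAATGT, a core bound by TEAD factors, or a CArG box, the site of serum response factor. On either strand AGGAAG was found in 29.5% of 32851 promoters of this length, TGGGAA in 21.6%, GAATGT in 9.93% and the CArG box in 1.47%. The RefSeq table holds a further start-site window of Prkg1, at chr19:31664371-31664620 (minus strand, not printed), in which none of the 4 motifs was found. The printed window of Prkg1 was 55.2% G or C and that of Npr1 70.4%. A match describes letters in a window and is not a binding site.

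The 3 phosphodiesterases had 3 different patterns. Pde5a, which breaks down cGMP only (3:122728947-122859374, plus strand), was mural and stromal. Pde3a, which breaks down cAMP as well as cGMP and is inhibited by cGMP (6:141249269-141507448, plus strand), was endothelial and mural. Pde2a, which breaks down cAMP as well as cGMP and is stimulated by cGMP (7:101410886-101512819, plus strand), was mostly immune.

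Pde5a stood at 4430.3 ± 200.1 CPM in pericyte-like cells (4241, 4411 and 4639 CPM), and every one of the 91 pericyte-like cells held a Pde5a UMI. Myofibroblast-like cells had 1305 ± 71.3 CPM (1224, 1360.1 and 1330.0 CPM), below pericyte-like cells and above all other types of the 21 in each mouse. This type pooled unlike sub-clusters, among them some led by Tnc, by Hhip or by Pdgfra. Notch3 mural cells (477 ± 167 CPM) and smooth-muscle-like cells (427 ± 72.9 CPM) overlapped. The share of cells with a Pde5a UMI was 99.2% ± 0.96 in myofibroblast-like cells, 91.3% ± 0.45 in smooth-muscle-like cells and 1.93% ± 0.15 in B-cell-like cells. Because myofibroblast-like cells were many, other stromal cells held 62.8% ± 5.36 of the Pde5a UMIs and mural cells 29.2% ± 6.82. The smooth-muscle-like cells were not uniform. The 42 cells of the sub-cluster led by Actc1, Cnn1 and Hhip had 1297 ± 176 CPM of Pde5a and 35.0 ± 4.80 CPM of Pde3a, and the 164 cells led by Acta2, Myh11 and Pi15 had 249 ± 11.8 CPM of Pde5a and 448 ± 23.6 CPM of Pde3a. Hhip is also on the myofibroblast marker list, and both sub-clusters were drawn from the same cells, so no test was made.

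Pde3a was highest in arterial-like EC at 1017 ± 19.9 CPM (1011, 1039 and 1000.3 CPM), with no overlap with any other type. Venous-like EC (604 ± 92.8 CPM), Aplnr-type capillary EC (591 ± 62.7 CPM) and Notch3 mural cells (567 ± 83.5 CPM) overlapped each other. Smooth-muscle-like cells (379 ± 27.7 CPM), pericyte-like cells (368 ± 30.6 CPM) and Car4-type capillary EC (321 ± 30.8 CPM) formed a lower group whose neighbors also overlapped. Myofibroblast-like cells, high in Pde5a, had 40.8 CPM of Pde3a. A Pde3a UMI was found in 96.9% ± 0.48 of arterial-like EC and 0.54% ± 0.36 of B-cell-like cells. EC held 64.1% ± 3.29 of the Pde3a UMIs and mural cells 26.1% ± 3.11.

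Pde2a was highest among the 21 types in NK-like cells, at 150.1 ± 19.4 CPM (151, 130.1 and 169 CPM). Neutrophil-like cells had 103 ± 3.23 CPM (101, 107 and 101 CPM), below NK-like cells in each mouse. With clustering at resolution 0.4, or with the members among the variable genes, T-cell-like cells were highest instead, at 118 and 114 CPM. T-cell-like cells (74.6 ± 38.1 CPM), B-cell-like cells (71.6 ± 4.91 CPM) and venous-like EC (71.3 ± 6.21 CPM) overlapped. A Pde2a UMI was found in 61.0% ± 10.8 of NK-like cells, 43.9% ± 3.60 of venous-like EC and 22.9% ± 2.01 of B-cell-like cells, against 1.02% ± 0.52 of the deeper AT2-like cells, which served as the check here. Immune cells held 66.7% ± 7.53 of the Pde2a UMIs. The 17 lymphatic-like EC, too few to count among the 21 types, had 424, 395 and 249 CPM of Pde2a in mice 2, 3 and 4. They held 114 Pde2a UMIs, 33 of them in 7 marked doublets. In the other EC the gene was at 9.63 CPM in Car4-type capillary EC and lower still in arterial-like EC, where 3 of 157 cells had a Pde2a UMI. Pde2a shares 150 of its 4139 exon bases with Arap1 on the same strand, whose order over types differed, with 263 ± 41.5 CPM of Arap1 in Col13a1-type fibroblasts and 101 ± 10.4 CPM in B-cell-like cells.

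**Figure D2:**
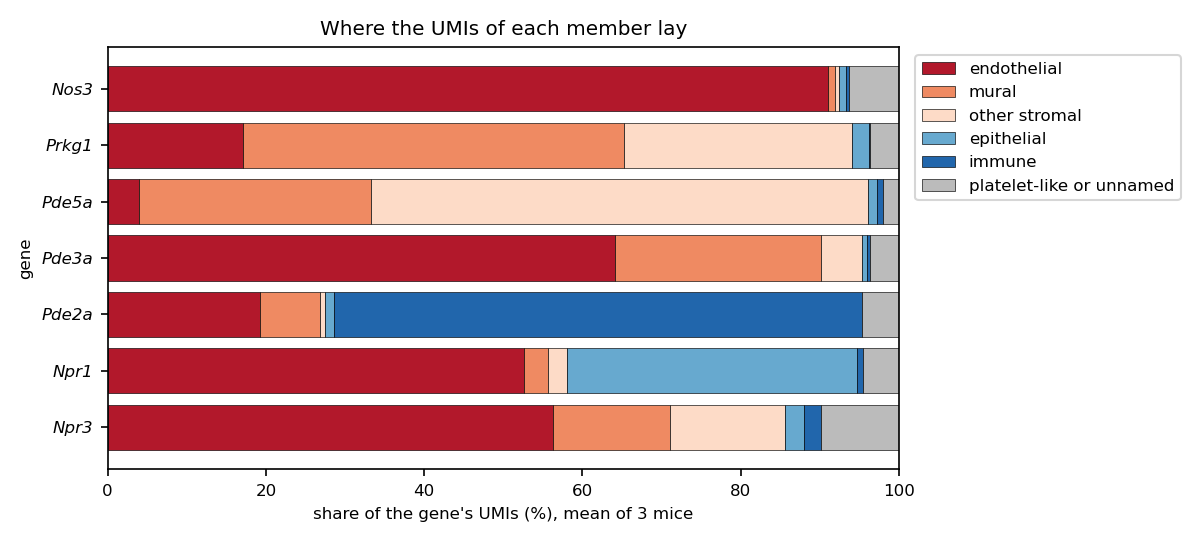
Stacked bars of the share of each gene's UMIs (horizontal axis, percent, mean of 3 mice) in the cell classes, 1 bar per gene. EC hold 91.0% of Nos3 and 52.6% of Npr1, other stromal cells 62.8% of Pde5a, mural cells 48.2% of Prkg1, and immune cells 66.7% of Pde2a.

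EC were compared with the other classes to ask which members mark the endothelial side of the pathway. Against mural cells, 5 of 7 members were higher in EC and 2 lower, where 52.5% of 13839 genes tested were called in either direction by edgeR (25.4% higher, 27.1% lower). Nos3 stood at 124 ± 13.2 CPM in EC and was 5.67 ± 0.33 higher on the log2 scale than in mural cells (SE, adjusted p = 1.07e-10, edgeR, as for all adjusted p values). Npr1 was higher by 3.17 ± 0.12 (adjusted p = 5.96e-13) and Npr3 by 1.03 ± 0.16 (adjusted p = 4.07e-05). Pde5a was lower in EC by 3.77 ± 0.23 on the log2 scale, a log2 fold of -3.77 (adjusted p = 1.85e-10), and Prkg1 had a log2 fold of -2.41 ± 0.18 (adjusted p = 2.75e-09). Pde3a, at 592 ± 37.3 CPM in EC and 422 ± 20.8 CPM in mural cells, differed little, with a log2 fold of 0.38 ± 0.13 (adjusted p = 0.0233) that lost its call without mouse 2 (adjusted p = 0.115) or mouse 4 (adjusted p = 0.0588). Pde2a had a log2 fold of 0.46 ± 0.16 (adjusted p = 0.0253), which became 1.62 with the Notch3 mural cells left out and lost its call with marked doublets left out (0.26, adjusted p = 0.293), by DESeq2 (adjusted p = 0.104), without mouse 2 (adjusted p = 0.156) or without mouse 3 (adjusted p = 0.142). Of the 247 Pde2a UMIs in EC, 114 lay in the 17 lymphatic-like and 92 in the 107 venous-like cells. The median log2 fold was 0.46 over the 7 members and 0.00 over all genes tested.

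Against other stromal cells, 5 members were higher in EC and 2 lower (54.8% of all genes called, 25.9% higher and 28.9% lower). Pde5a was again lower in EC (log2 fold -3.71 ± 0.23). Prkg1 had a log2 fold of -0.48 ± 0.19 (adjusted p = 0.0419), and this call was lost in 10 of 13 alternatives. Pde2a, Npr1 and Pde3a were 5.13 ± 0.26, 4.79 ± 0.13 and 3.89 ± 0.15 higher in EC on the log2 scale. Mural cells differed from other stromal cells in 5 members, all higher in mural cells (29.7% of all genes called, 14.6% higher and 15.1% lower). Prkg1 was among them (log2 fold 1.93 ± 0.17, adjusted p = 7.21e-08). Pde5a, at 960 ± 203 CPM in mural and 932 ± 119 CPM in other stromal cells, had a log2 fold of 0.07 ± 0.20 (adjusted p = 0.848). These classes pool types with far apart Pde5a levels, pericyte-like with smooth-muscle-like cells on one side and myofibroblast-like cells with fibroblasts on the other.

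Against epithelial cells all 7 members were higher in EC (66.2% of genes called, 33.8% higher and 32.3% lower). Npr1 had the smallest of the 7 log2 folds, 1.25 ± 0.09 (adjusted p = 1.01e-09), with 244 ± 9.40 CPM in EC and 73.1 ± 1.68 CPM in epithelial cells. Against immune cells 6 members were higher in EC and Pde2a was lower (69.7% of genes called, 34.3% higher and 35.4% lower). Pde2a stood at 26.1 ± 3.41 CPM in EC and 65.7 ± 2.64 CPM in immune cells, a log2 fold of -1.59 ± 0.12 (adjusted p = 1.69e-09), and the EC value rests mainly on the same lymphatic-like and venous-like cells. For Prkg1 immune cells held only 2 UMIs, and the ratio to EC was 155 with a counting interval of 42.3 to 1284.

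**Figure D3:**
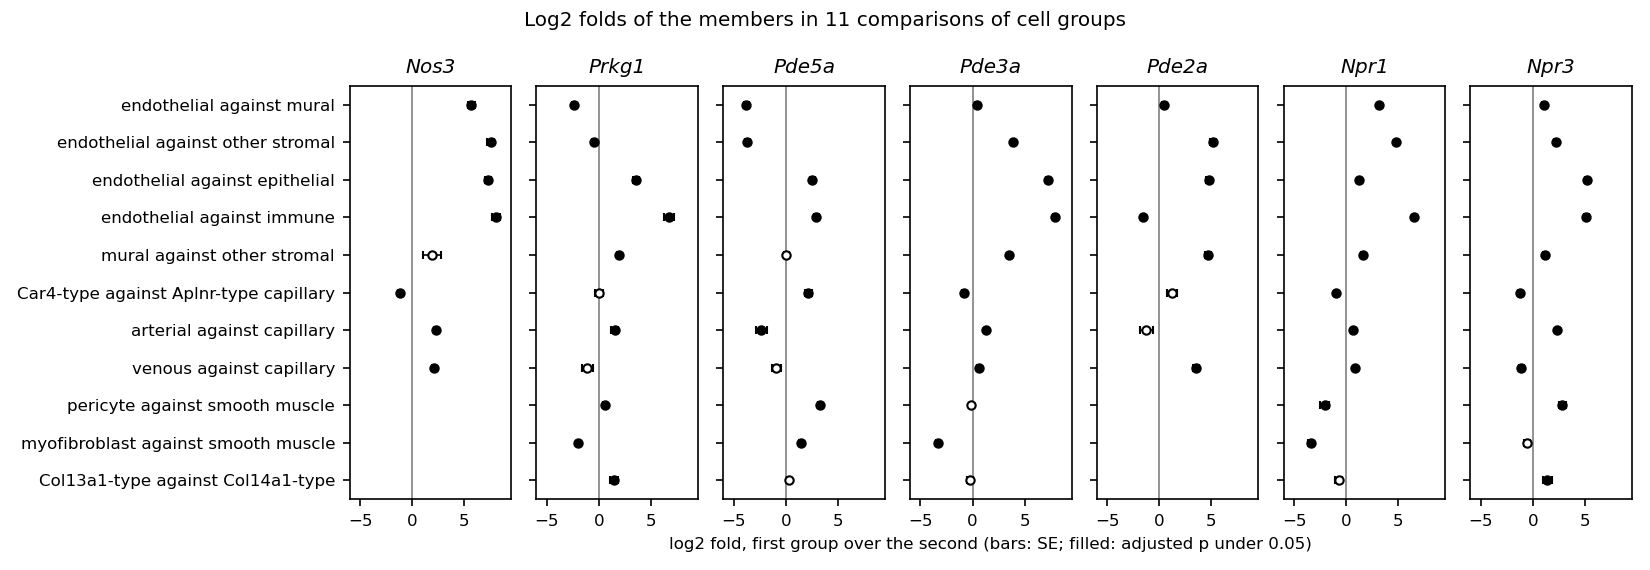
Log2 fold of each gene (1 panel per gene) in 11 comparisons of cell groups (vertical axis), first group over the second, with SE as bars and filled points where the adjusted p was under 0.05. Pde5a lies left of 0 where EC are set against mural or other stromal cells, and Pde2a where EC are set against immune cells.

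Within EC the members separated the vessel types. Capillary EC were here the average of the Car4-type and Aplnr-type fits. Arterial-like EC differed from this average in 6 of 7 members, 5 higher and 1 lower (27.3% of 8324 genes called, 13.8% higher and 13.4% lower). Npr3 was 2.32 ± 0.13 higher on the log2 scale (adjusted p = 1.94e-12), Nos3 2.24 ± 0.14 (adjusted p = 1.04e-11), Prkg1 1.49 ± 0.30 (adjusted p = 0.000479) and Pde3a 1.29 ± 0.10 (adjusted p = 3.66e-10). Npr1 differed less, by 0.63 ± 0.11 (adjusted p = 8.12e-05), and its level overlapped that of Aplnr-type cells alone (exact permutation p = 0.4). Pde5a was lower in arterial-like EC (log2 fold -2.36 ± 0.52, adjusted p = 0.00107), with 31 UMIs in 157 cells. Pooled over mice, cells without a UMI of a pericyte marker had Pde5a at 14.9 CPM (arterial-like), 46.9 CPM (Car4-type) and 39.3 CPM (Aplnr-type). The part of the cells with such a UMI in the fold was not tested.

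Venous-like EC differed from the same capillary average in 5 members, 4 higher and 1 lower (25.0% of genes called, 13.4% higher and 11.6% lower). Pde2a was 3.54 ± 0.30 higher on the log2 scale (adjusted p = 1.7e-09) and Nos3 2.09 ± 0.15 higher (adjusted p = 1.68e-10). Npr1 and Pde3a were higher by 0.85 ± 0.11 and 0.57 ± 0.11. The levels of both overlapped those of Aplnr-type cells alone (exact permutation p = 0.8 for Pde3a). Npr3, raised in arterial-like EC, was lower in venous-like EC (log2 fold -1.11 ± 0.25, adjusted p = 0.0016). Its level there overlapped that of Car4-type cells alone (exact permutation p = 0.3). Pde5a in venous-like EC was 11.1, 12.0 and 133 CPM in mice 2, 3 and 4, and 50 of its 66 UMIs lay in 1 cell of mouse 4, one of the 7 cells that held a UMI of a pericyte marker. Its log2 fold was -0.93 ± 0.44 (adjusted p = 0.138) with all mice and -2.74 (adjusted p = 6.95e-06) without mouse 4. With the mouse as a block the same log2 fold of -0.93 was called (adjusted p = 0.0304).

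Car4-type capillary EC, the wide thin cells also called aerocytes, differed from Aplnr-type capillary EC in 5 members. Of these, 4 were lower and 1 higher (14.1% of genes called, 8.3% higher and 5.83% lower). The Car4-type group joined 95 cells with a median of 9148 UMIs and 87 cells of a sub-cluster with a median of 938. Npr3 (log2 fold -1.28 ± 0.19), Nos3 (-1.17 ± 0.20), Npr1 (-0.97 ± 0.13) and Pde3a (-0.85 ± 0.12) were lower, with adjusted p values of 3.47e-05, 0.000189, 5.66e-06 and 1.75e-05. These 4 directions held in every mouse, with no overlap in level between the groups. Prkg1 did not pass the test (log2 fold 0.02 ± 0.39, adjusted p = 0.992).

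Pde5a was the member called higher in Car4-type capillary EC, with 156, 180 and 316 CPM in mice 2, 3 and 4 and a log2 fold of 2.16 ± 0.35 (adjusted p = 8.38e-05). Markers of mural cells moved with it. The summed level of the 12 smooth muscle and pericyte markers was 247 to 524 CPM in Car4-type and 11.8 to 78.6 CPM in Aplnr-type capillary EC, with none of the 12 at 0 in either. Of the 411 Pde5a UMIs in Car4-type capillary EC, 351 lay in the 17 cells that held a UMI of a pericyte marker, and 223 lay in the 10 marked doublets. The 165 cells without such a UMI had 46.9 CPM of Pde5a, against 39.3 CPM in the 413 Aplnr-type cells without one. Both values were pooled over mice. The 17 cells with such a UMI were deeper, with 567219 UMIs in all against 1279000 in the 165. Leaving out marked doublets gave a log2 fold of 1.27 that was still called. At clustering resolutions of 0.4 and 1.2 the log2 folds were -1.14 (adjusted p = 0.0922) and -1.11 (adjusted p = 0.101), so the direction turned with the clustering.

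**Figure D4:**
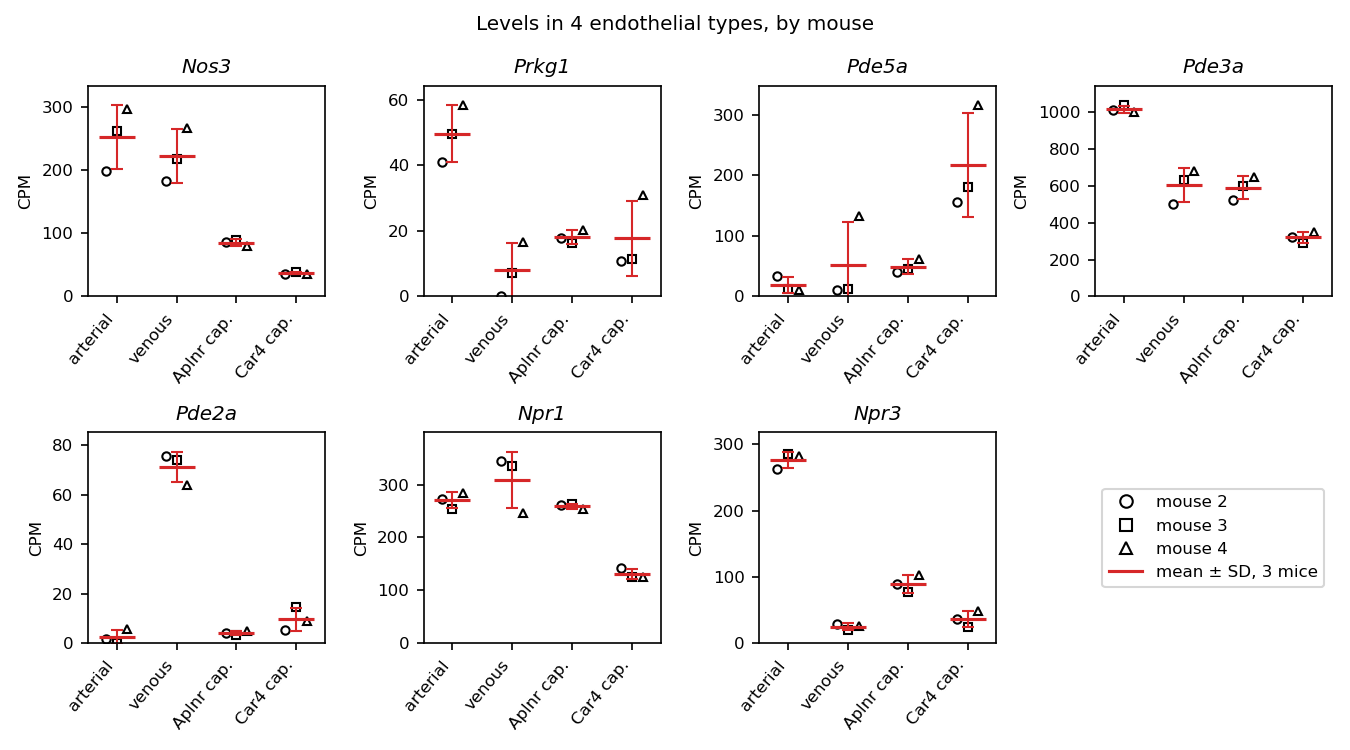
Level of each gene in CPM (vertical axes, 1 panel per gene, starting at 0) in the EC types (horizontal axis), with 1 point per mouse and lines for the mean and SD, which stop at 0. Nos3 and Pde3a peak in arterial-like EC, Pde2a is high in venous-like EC among the main types, and for Pde5a mouse 4 stands above mice 2 and 3 in venous-like EC.

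Within the stroma pericyte-like and smooth-muscle-like cells differed in 4 of the 5 members tested, 3 higher and 1 lower in pericyte-like cells (36.5% of 9586 genes called, 16.5% higher). Nos3 and Pde2a had too few UMIs to be tested there. Pde5a was 3.24 ± 0.19 higher on the log2 scale (adjusted p = 7.18e-13) and Npr3 2.83 ± 0.31 higher (adjusted p = 4.95e-08). Npr1 was lower in pericyte-like cells (log2 fold -2.06 ± 0.43, adjusted p = 0.000449), with 8.14 ± 7.05 CPM against 37.3 ± 3.42 CPM. The pericyte-like level of Npr1 rests on only 7 UMIs. The 2 natriuretic peptide receptors thus had opposite signs in the same comparison. Prkg1 was higher by 0.55 ± 0.17 (adjusted p = 0.0153), a call lost without mouse 3 (0.37, adjusted p = 0.206), without mouse 4 (0.49, adjusted p = 0.107) or with a stricter cell filter, 500 genes or more and a mitochondrial share up to 10% (0.47, adjusted p = 0.0723). Pde3a did not pass the test (log2 fold -0.16 ± 0.13, adjusted p = 0.374).

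Myofibroblast-like cells were set against the same smooth-muscle-like cells, and 4 of 5 members differed, 1 higher and 3 lower (39.1% of genes called, 17.8% higher and 21.4% lower). Pde5a was higher by 1.47 ± 0.18 on the log2 scale (adjusted p = 2.35e-07). Npr1 (log2 fold -3.42 ± 0.26), Pde3a (-3.36 ± 0.12) and Prkg1 (-1.99 ± 0.15) were lower. Col13a1-type fibroblasts, which lie in the alveolar wall, were set against Col14a1-type fibroblasts, which surround larger vessels and airways. They differed in 2 members, both higher in Col13a1-type fibroblasts (25.1% of genes called, 11.4% higher and 13.6% lower). Prkg1 was higher by 1.46 ± 0.37 (adjusted p = 0.00408) and Npr3 by 1.37 ± 0.41 (adjusted p = 0.014), and both calls were lost without mouse 2 or without mouse 3. Of the 149 Pde5a UMIs in Col14a1-type fibroblasts 53 lay in marked doublets.

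**Figure D5:**
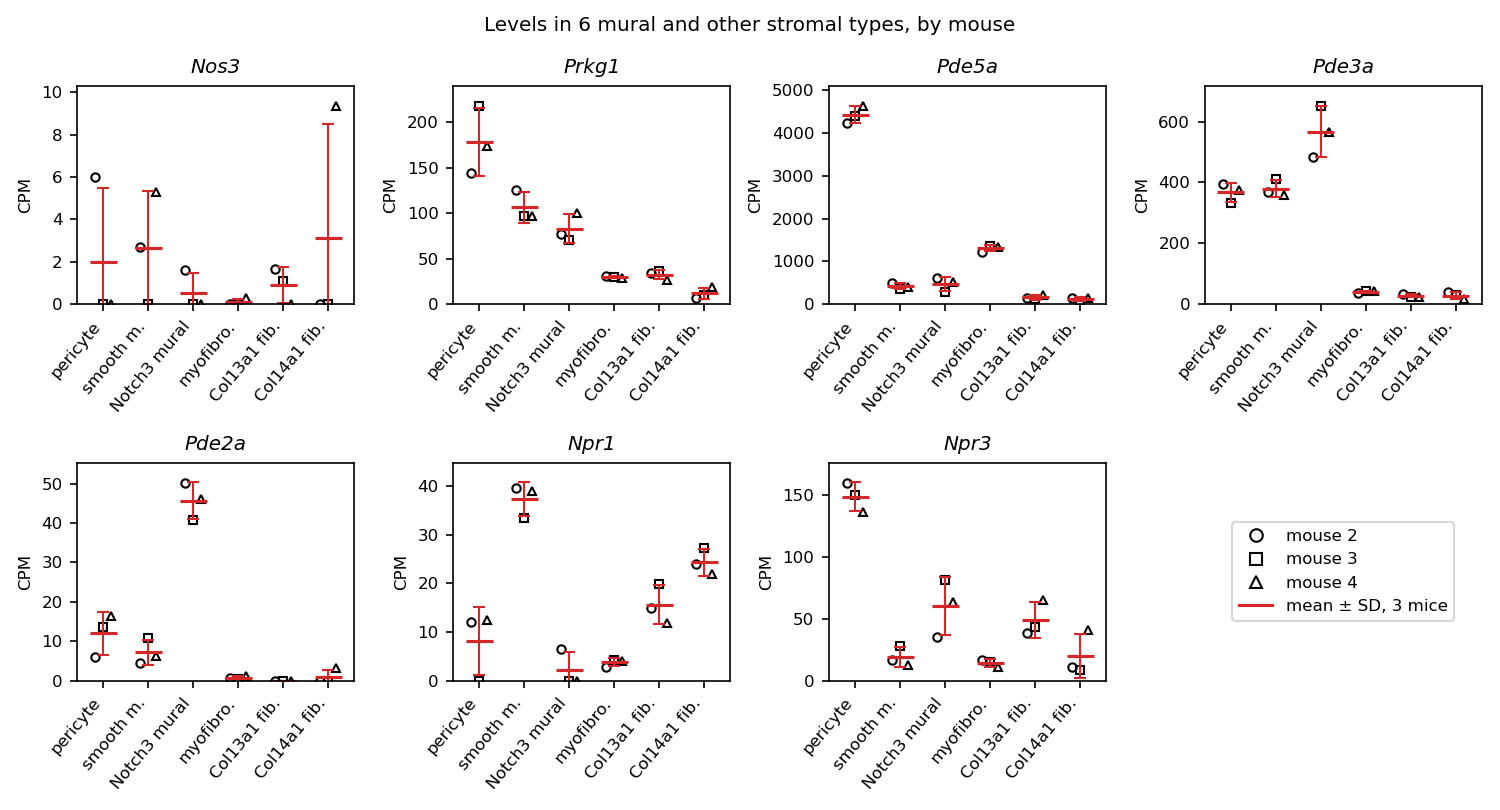
Level of each gene in CPM (vertical axes, 1 panel per gene, starting at 0) in mural and other stromal types (horizontal axis), with 1 point per mouse and lines for the mean and SD, which stop at 0. The 3 pericyte-like points of Pde5a lie between 4241 and 4639 CPM, above all others, and Npr3 is also highest in pericyte-like cells.

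The other genes of the pathway were taken from a list of 62 measured genes sorted by role. Between EC and mural cells 51 could be tested, and 17 were higher in EC and 19 lower. Of all genes 52.5% were called (25.4% higher and 27.1% lower). The median log2 fold was -0.15 against 0.00 over all genes.

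The partners and suppliers of NO synthase leaned to EC, with 9 of 16 higher and 1 lower (25.4% and 27.1% of all genes). Ddah1, which degrades a natural inhibitor of NO synthases, was 3.99 ± 0.32 higher on the log2 scale, and Nostrin, which binds and internalizes Nos3, 2.19 ± 0.17 higher. Cav1, which holds Nos3 inactive in caveolae, was higher by 1.08 ± 0.27. Gch1, the first enzyme in the synthesis of the cofactor tetrahydrobiopterin, had 180 UMIs in EC and 2 in mural cells, a ratio of 51.1 with a counting interval of 13.9 to 425. Gchfr, listed among the same partners and suppliers, had 291 and 2 UMIs, a ratio of 82.5 with a counting interval of 22.6 to 685. Hsp90aa1, a chaperone, was the 1 lower gene (log2 fold -0.99 ± 0.12). Nos2, the inducible NO synthase, had 180 UMIs in EC and 0 in mural cells, so it was at least 34.0-fold higher in EC against a floor of 3 counts over the mural group. Its EC level was 37.7 ± 5.88 CPM in Car4-type and 21.5 ± 7.55 CPM in Aplnr-type capillary EC, and no Nos2 UMI was counted in venous-like EC.

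Among these other genes, the soluble guanylate cyclase subunits and the kinases and kinase targets leaned to mural cells. The member Npr1, which also makes cGMP, was higher in EC. All 3 soluble guanylate cyclase subunits tested were lower in EC, Gucy1a1 with a log2 fold of -5.08 ± 0.31 and Gucy1b1 with -4.63 ± 0.18. Gucy1a2 had -5.31 ± 0.47, on only 6 UMIs in EC. Of 9 kinases and kinase targets, 8 were lower in EC and none higher, where 27.1% of all genes were lower. Mrvi1, the kinase substrate that restrains calcium release, had a log2 fold of -6.66 ± 0.23, on 13 UMIs in EC. Rgs2, which shortens signals of contractile receptors, had -1.93 ± 0.15, and Vasp, an actin regulator, -1.08 ± 0.08. Of the natriuretic group 2 of 4 were lower in EC, Npr2, the receptor for C-type natriuretic peptide (log2 fold -2.46 ± 0.17), and Corin, the protease that processes atrial natriuretic peptide, with 0 UMIs in EC and 77 in mural cells. Of the genes listed with the other cGMP phosphodiesterases, a list that includes the subunit gene Pde6d, 2 of 7 were higher in EC and 2 lower (25.4% and 27.1% of all genes). These were led by Pde1c (log2 fold 2.05 ± 0.60) and Pde1a (log2 fold -6.55 ± 0.40, on only 4 UMIs in EC). The cAMP-specific phosphodiesterases were split, 3 higher and 3 lower of 8. Of 3 export and channel genes, Abcc4, which pumps cyclic nucleotides out of cells (log2 fold 4.16 ± 0.50), and Cngb1 (log2 fold 2.43 ± 0.50) were higher in EC.

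Pericyte-like cells held the enzyme that receives NO at higher levels than other mural cells. Gucy1a1 stood at 5286 ± 461 CPM in pericyte-like cells (5043, 4997 and 5817 CPM), 1192 ± 80.3 CPM in Notch3 mural cells and 651 ± 48.4 CPM in smooth-muscle-like cells. Its partner subunit Gucy1b1 stood at 3115 ± 59.2 CPM in pericyte-like and 302 ± 34.1 CPM in smooth-muscle-like cells. On the log2 scale Gucy1a1 was 2.89 ± 0.15 higher in pericyte-like than in smooth-muscle-like cells and Gucy1b1 3.23 ± 0.12 higher. Trpc6, a cation channel and kinase target, had 527 ± 35.0 CPM in pericyte-like cells and no UMI in smooth-muscle-like cells, so it was at least 580.2-fold higher against a floor of 3 counts over the group. Nostrin had 323 ± 33.3 CPM in pericyte-like cells, with 234 UMIs there and 2 in smooth-muscle-like cells.

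Smooth-muscle-like cells held other kinase targets at higher levels. Mrvi1 (log2 fold -4.84 ± 0.32), Rgs2 (-3.44 ± 0.22) and Ppp1r12a, the myosin phosphatase subunit (-2.08 ± 0.16), were lower in pericyte-like cells, as was Cav1 (-4.84 ± 0.32). Kcnma1, the large-conductance potassium channel, had 113 UMIs in smooth-muscle-like and 1 in pericyte-like cells. In all, 10 of 39 pathway genes tested were higher in pericyte-like cells and 12 lower (36.5% of all genes called), with a median log2 fold of -0.14 (0.00 with genes at 0 UMIs set to their bound) against -0.07 over all genes.

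Between the capillary groups 3 of 31 genes of the list were higher and 3 lower in Car4-type cells, where 14.1% of all genes were called. Pde8b, a cAMP phosphodiesterase, was 3.96 ± 0.38 higher there on the log2 scale. Gucy1a1 and Gucy1b1 were called higher too (log2 folds 3.52 ± 0.46 and 3.12 ± 0.40), but their direction turned with the clustering, as that of Pde5a did. At resolutions of 0.4 and 1.2 Gucy1a1 was called lower (log2 folds -2.58 and -2.55, adjusted p = 0.00388 and 0.00402). Gucy1b1 was not called there (log2 folds -0.38 and -0.34, adjusted p = 0.625 and 0.659). Arterial-like EC differed from capillary EC in 18 of 31 genes, 7 higher and 11 lower (27.3% of all genes called), and venous-like EC in 13 of 31, 4 higher and 9 lower (25.0% of all genes called). Nostrin was lower in both, with log2 folds of -3.20 ± 0.21 and -2.50 ± 0.20, while Nos3 was higher in both. Rgs2 was lower in both as well (log2 folds -2.08 ± 0.23 and -1.08 ± 0.21), and both comparisons used the same capillary cells. Over all 21 types, by contrast, the log2 mean CPM of Nostrin and Nos3 had a Pearson r of 0.61.

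The genes most like each member in pattern were found by Pearson correlation of log2 mean CPM over the 21 types, among 12163 genes. These values describe types that share libraries and carry no test. Nos3 was most like Plvap (r = 0.964), Edn1 (r = 0.962) and Mmrn2 (r = 0.951), Npr1 most like Unc13b (r = 0.917) and Npr3 most like Uaca (r = 0.931). Pde5a was most like Tbx5 (r = 0.949), followed by the soluble guanylate cyclase subunits Gucy1b1 (r = 0.944) and Gucy1a1 (r = 0.938), listed in the files under the older symbols Gucy1b3 and Gucy1a3. Prkg1 was most like Hoxb3os (r = 0.933), Pkd1 (r = 0.932) and Smtn (r = 0.930). Pde3a was most like Gm28523 (r = 0.954), a gene on the opposite strand that shares 741 of the 12737 exon bases of Pde3a. Reads of the pair may not be told apart if counting ignored strand. Pde2a had no close match, with Cmah (r = 0.819) nearest.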

How the data were processed

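Whole lung of 3 mice was profiled with 10x Genomics 3′ v3 chemistry. The counts deposited by the authors are whole-number UMIs per gene and droplet, made with Cell Ranger 3.0.2 on mm10 per the submitters' processing notes. Whether counting used strand is not given in the sources used here. The labels state 16000 cells loaded per library, and the paper's methods give another number.

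A droplet was kept with 200 or more genes detected and no more than 20% of its UMIs mitochondrial. They were clustered with Seurat 5.3.0 and sctransform 0.4.2 (R 4.3.3, 30 components, resolution 0.8, sub-clusters of each class with 20 components at 1.2), leaving the members and pathway genes out of the variable genes. Clusters were named from marker lists. The 7 members, the pathway list, the markers and the naming thresholds were chosen with earlier results of these data known, and the thresholds after clusters were seen. Low-UMI clusters with a low mitochondrial share stayed unnamed. Club-like and platelet-like cells and a sub-cluster of Car4-type capillary EC, low in UMIs without that, were named. Immune and mural cells of no single type were kept under those names and used. The values of 1 small unnamed group are not reported here.

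Doublets were scored per library with Scrublet (scanpy 1.11.5). Its automatic threshold marked 0.363%, 0.0319% and 0.432% of droplets, so the highest-scoring 0.8% per 1000 droplets were marked instead, and they were left out only as an alternative.

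Raw UMIs were summed per mouse and group and tested with edgeR 4.0.16 (TMM, filterByExpr, quasi-likelihood test, Benjamini-Hochberg over all genes tested, threshold 0.05). Separate fits covered the 5 classes, the EC types and the stromal types, and SE was derived from the quasi-likelihood F statistic. The genes named are the members, the pathway genes called with the largest log2 folds of each role or needed for its sentence, and for each member the genes most like it. DESeq2 1.42.0, other scalings, filters, clusterings, thinning and leaving out each mouse were alternatives. The edgeR step was tested on simulated data. Groups come from the same 3 animals, so mice pair the sums. Residuals of the same mouse correlated between -0.02 and 0.25 over 30 pairs of groups, and those of different mice between -0.20 and 0.14 over 60 pairs.

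Mice are the replicates, 1 library each, and p values measure the spread between these 3. Binomial and ratio intervals and the floor of 3 counts cover counting error only. Coordinates are from GENCODE M21. Nos3 shares exon bases with Gm15587 and Atg9b and Npr1 with Gm16048, all on the opposite strand and each with under 30 UMIs in all droplets. Promoters came from RefSeq, matched by symbol for 5 of 7 members, and those of Nos3 and Pde3a were not analysed here. Python 3.11.15, numpy 2.4.6, pandas 2.3.3, scipy 1.17.1 and matplotlib 3.10.9 were used.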

Additional observations from a re-analysis of the deposited data

Results flagged for a closer look

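Values of the members also appeared in droplets outside the 21 types, above the limit that 3 counts allow. These droplets entered no comparison. Nos3 had 76.05 ± 30.9 CPM, Npr1 86.54 ± 14.6 CPM and Npr3 49.76 ± 4.34 CPM (mean ± SD, n = 3 mice) in 504 droplets led by Hpgd and Sox7, where the 3-count limit was 5.63 CPM and the median was 865.5 UMIs with 0.668% mitochondrial UMIs. In 44 low-UMI droplets led by Rgs5 and Higd1b, genes of the pericyte list and its relatives, Pde5a had 2064 ± 440 CPM, Pde3a 206.7 ± 28.2 CPM and Prkg1 132.4 ± 115 CPM against a limit of 49.4 CPM. Pde2a had 32.14 ± 55.7 CPM in 166 low-UMI droplets led by Uchl1 and Pcsk1n, against a limit of 8.77 CPM, and 20 of its 21 UMIs there lay in 1 marked doublet. Groups of 3 mice were not examined for single outlying samples.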

How the results depend on the processing

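Of 71 member comparisons tested, 59 were called, where 14.1% to 69.7% of all genes were called per comparison. Of these 59 calls, 52 held in every alternative (14 at most per comparison), a share not counted for other genes. The other 7 were Pde3a and Pde2a in EC against mural cells, Prkg1 in EC against other stromal cells, Pde5a in Car4-type against Aplnr-type capillary EC, Prkg1 in pericyte-like against smooth-muscle-like cells, and Prkg1 and Npr3 in Col13a1-type against Col14a1-type fibroblasts. DESeq2 gave Pde5a in Car4-type capillary EC a log2 fold of 2.17 without a call (adjusted p = 0.0997), and clustering at resolutions 0.4 and 1.2 reversed it to -1.14 and -1.11. Prkg1 in the same comparison, never called, changed sign to -0.11 and -0.15 at those resolutions, -0.017 with members among the variable genes, -0.0030 without TMM, -0.016 without a filter and -0.60 without mouse 4 (-0.60 to 0.21 with 1 mouse left out). Pde5a in mural against other stromal cells, also uncalled, changed sign to -0.085 with a stricter cell filter (500 genes or more, mitochondrial share to 10%) and -0.033 without mouse 2 (-0.033 to 0.17 with 1 mouse left out). The number of members called between the fibroblast types ranged from 0 to 2 with 1 mouse left out. With the mouse as a block, the replicate pairing changed 1 member call, Pde5a in venous-like against capillary EC (log2 fold -0.93, adjusted p = 0.0304). Without mouse 3, 688 genes in all were called between the capillary groups, against 1176. The stricter cell filter moved Pde5a in pericyte-like cells to 4883 CPM and the EC share of Npr1 UMIs to 51.6%. That share was 53.6% without marked doublets and 53.1% with members among the variable genes, and the EC share of Nos3 UMIs was 94.1% without marked doublets. Cells were also thinned to 1000 or 2000 UMIs, with shallower cells left out of the thinned shares only. The share of EC with a UMI was then lower, at 11.3% or 20.5% for Nos3, 2.09% or 4.20% for Prkg1 and 4.03% or 7.43% for Pde5a. It was 41.8% or 63.1% for Pde3a, 2.03% or 3.82% for Pde2a, 21.6% or 38.6% for Npr1 and 8.43% or 15.0% for Npr3. The causes of the reversals were not tested. Leaving out the Notch3 mural cells was chosen after seeing the data. Depth limits shares of cells with a UMI, and 3 mice limit the precision of each level.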

Other observations

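Platelet-like droplets were too few in each mouse for the comparisons (32 in all, median 733 UMIs). They held 745 ± 408 CPM of Gucy1b1 (76 UMIs), 291 ± 38.4 CPM of Mrvi1 (27 UMIs), the kinase substrate that also acts in platelets, and 353 ± 214 CPM of Pde5a (26 UMIs, 14 of them in 1 droplet of mouse 2). Gucy1b1 in mice 2, 3 and 4 was 931, 277 and 1027 CPM.

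The 17 lymphatic-like EC had 323 ± 128 CPM of Npr1 (99 UMIs, 40 of them in marked doublets) and 150.3 ± 117 CPM of Nos3 (41 UMIs, 14 of them in marked doublets), with 8 UMIs of Pde3a. The 96 club-like cells had 38.6 ± 8.31 CPM of Nos2, close in level to Car4-type capillary EC at 37.7 ± 5.88 CPM. The club-like cells had a median of 788 UMIs, and 67 of them came from mouse 4. Levels are of summed UMIs, so the deeper of these cells weigh most.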
